A study of Equus caballus with 22 samples.

Results

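Gelsolin (GSN), RND3, transgelin (TAGLN) and annexin A2 (ANXA2) encode proteins that act on the actin cytoskeleton, and their transcripts were followed in the endometrium (the inner lining of the uterus) of warmblood mares in early pregnancy. The members were all array probes, control spots aside, that carry a horse RefSeq transcript of 1 of the 4 genes. They came to 7 probes on 11 spots, and to 4 of the 675 genes that could be named on the array. GSN had 2 probes (A_69_P004116, called probe 1, and A_69_P000386, probe 2, transcript NM_001081953). RND3 had 1 probe (A_69_P117016, XM_001488213), and TAGLN had 1 probe printed on 5 spots (A_69_P001046, NM_001110134). ANXA2 had 3 probes (A_69_P000031, A_69_P000032 and A_69_P098211, probes 1 to 3, NM_001123380). All 7 probes were well above background on 22 of 22 arrays, none was saturated, and all passed the filter on dim probes, so no member was lost.

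At day 12, 6 mares each gave 1 biopsy in pregnancy, taken once the embryo had been recovered, and 1 control biopsy at the same stage without pregnancy. At day 8, 5 mares gave the same pair of samples. Day 12 mares are numbered 1 to 6 and day 8 mares 1, 2, 4, 5 and 6, and whether equal numbers on the 2 days mean the same animal is not stated in the labels. The labels give no age and no treatment. The biopsies are whole tissue, so a change in the share of a cell type and a change in the RNA of each cell cannot be told apart.

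The 4 genes were chosen by changes measured earlier on these same arrays. The values used were those of RND3 and TAGLN with pregnancy at day 12, of GSN with pregnancy at day 8, and of GSN and ANXA2 between the control samples of the 2 days. These values, and the differences between days built from them, are given below as descriptions with no test. The remaining values were tested with limma, a linear model fitted to all probes, and an adjusted p (Benjamini-Hochberg, over all probes) under 0.05 was the threshold for a call.

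Actin filaments are built and taken apart continuously, and the proteins studied here act at different points of that cycle. Gelsolin cuts filaments and caps their ends when calcium rises. RND3 is an unusual small GTP-binding protein that stays in its GTP-bound form and loosens contractile stress fibres. Transgelin binds along and cross-links filaments and is most abundant in smooth muscle, and annexin A2 ties actin to membranes in the presence of calcium and phospholipid, often together with S100A10. In the mare the conceptus moves through the uterine lumen in this period before it becomes fixed in place, while endometrial glands and surface epithelium remodel.

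Levels are log2 intensities of a probe minus the 75th percentile of the same array, so a level of 0 is that percentile and a difference of 1 is a doubling. They serve to compare samples for 1 probe and not to compare probes. The 75th percentile lay between 636 and 1863 intensity units on the day 12 arrays and between 577 and 1461 on the day 8 arrays, and 74.2% to 92.9% of spots were well above background. Both arrays of a mare shared a slide. The 4 slides of day 12 and the 3 slides of day 8 were different slides, scanned on different days and read with different software versions, so for every comparison between days the day and these technical factors cannot be told apart. The day 12 changes of mare 3 ran against those of the other mares over all probes (r = -0.15 across 31338 probes with the mean of the other mares, against 0.10 to 0.60 for the other 5). At day 8 this r was -0.03, 0.27, -0.13, 0.13 and 0.19 in mares 1, 2, 4, 5 and 6.

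GSN, the filament-severing member, stood higher at day 12 than at day 8 in endometrium with and without pregnancy. In day 8 control samples probe 1 had levels of 3.43, 3.82, 3.51, 3.76 and 3.02 in mares 1, 2, 4, 5 and 6. In day 12 control samples it had levels of 4.32, 4.45, 4.57, 5.16 and 4.27 in mares 1, 2, 3, 4 and 6. Every day 12 control array lay above every day 8 control array, with a gap of 0.45 between the nearest values. The spot of day 12 control mare 5 was marked as non-uniform by the scanner software and left out, so day 12 values of probe 1 rest on 5 control arrays (with that spot kept its level was 4.76, while probe 2 read 5.12 on the same array). The control means were 4.56 ± 0.36 (SD, n = 5) at day 12 and 3.51 ± 0.32 (SD, n = 5) at day 8, a difference of 1.05 ± 0.22 log2 (SE), or 2.07-fold. Probe 2 gave 1.25 ± 0.24 log2 (SE), or 2.37-fold, from means of 4.44 ± 0.46 (SD, n = 6) and 3.19 ± 0.30 (SD, n = 5), and its control groups also did not overlap. These control values chose GSN and are a description.

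The pregnant samples, which were not used to choose GSN for a difference between days, gave the tested version of this comparison. They came from the same mares and slides as the control samples, so the test is not independent of the control values that chose GSN. Probe 1 had levels of 3.46, 4.86, 3.96, 4.44 and 3.63 in the pregnant samples of day 8 mares 1, 2, 4, 5 and 6. In the 6 pregnant samples of day 12 it ranged from 4.29 to 5.79 with a median of 4.99. The groups overlapped, because day 8 mare 2 lay above 2 of the 6 day 12 samples. GSN rose from day 8 to day 12 by 0.93 ± 0.30 log2 on probe 1 (SE, 1.91-fold, limma adjusted p = 0.0401) and by 1.00 ± 0.31 log2 on probe 2 (SE, 2.01-fold, limma adjusted p = 0.0343). The day 8 pregnant arrays also entered the day 8 pregnancy change of GSN described next, so that change and this one are not independent. Both calls were lost when mare 1, 4, 5 or 6 was left out, where probe 1 changed by 0.77, 0.75, 1.00 and 0.85 log2 with limma adjusted p of 0.124, 0.128, 0.0814 and 0.121. They were also lost with slide or scan day as a random block, under the normexp background correction and in the authors' deposited table, over which probe 1 changed by 0.73 to 1.08 log2 with adjusted p from 0.0922 to 0.380.

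**Figure D1:**
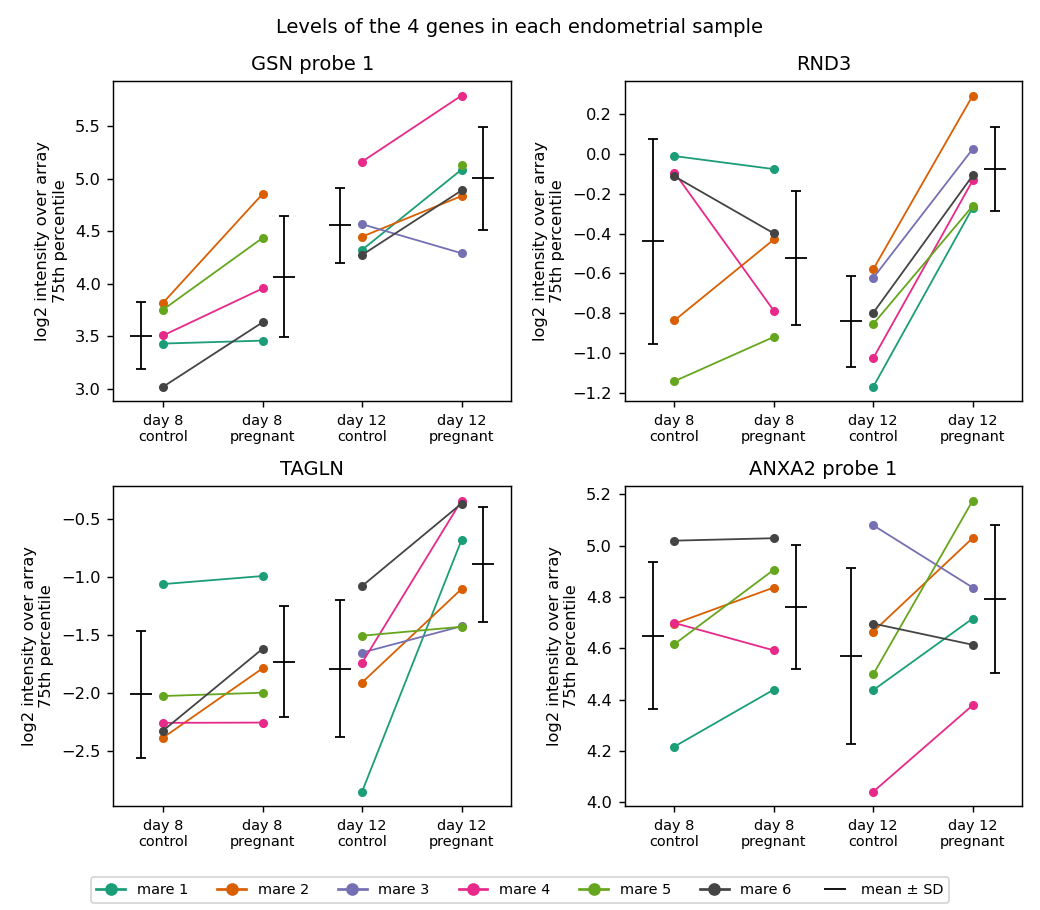
Levels of GSN probe 1, RND3, TAGLN and ANXA2 probe 1 in each endometrial sample, as log2 intensity over the 75th percentile of the array (y axis, a separate range per gene) by day and pregnancy (x axis). Points are samples, lines join the control and pregnant sample of 1 mare, and bars are the mean ± SD of a group. GSN stands higher at day 12 than at day 8, all 6 lines of RND3 slope upward at day 12, and the TAGLN lines of day 12 differ most in slope. The GSN point of control mare 5 at day 12 is left out.

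With pregnancy, GSN was higher on probe 1 in each of the 5 mares of day 8. The changes of probe 1, pregnant minus control, were 0.03, 1.03, 0.45, 0.68 and 0.61 log2 in mares 1, 2, 4, 5 and 6. The fitted change was 0.56 ± 0.17 log2 (SE, n = 5 mares, 1.48-fold) on probe 1 and 0.54 ± 0.18 on probe 2, where mare 1 was at -0.07. Mare 1 thus had almost no change on either probe and mare 2 had the highest on both. The mean changes of the 3 day 8 slides were 0.53, 0.45 and 0.65 log2 on probe 1. These values chose GSN and are given with no test. Over all probes, 4.02% were higher in every mare at day 8 and 4.25% were lower in every mare, 8.27% in either direction.

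At day 12 the GSN change with pregnancy did not pass the test. Probe 1 changed by 0.76, 0.39, -0.28, 0.63 and 0.61 log2 in mares 1, 2, 3, 4 and 6, and probe 2 changed by -0.13 in mare 5. The fitted change was 0.42 ± 0.17 log2 on probe 1 (SE, 95% interval 0.06 to 0.79, limma adjusted p = 0.329) and 0.30 ± 0.16 on probe 2 (95% interval -0.06 to 0.66, limma adjusted p = 0.494). Mare 3, whose changes ran against the others over all probes, was the one mare with a lower GSN level in pregnancy on both probes. The normexp correction moved the median change of all probes to 0.34, and relative to that median the 2 GSN probes turned to -0.12 and -0.18. The pregnancy change at day 12 minus that at day 8 was -0.14 ± 0.23 log2 on probe 1 and -0.24 ± 0.24 on probe 2 (SE), a description because the day 8 change was used to choose the gene. With 1 mare number left out it ran from -0.36 (without mare 1) to 0.037 (without mare 3) on probe 1, so its sign turned, and from -0.49 to -0.11 on probe 2 with the same mares left out.

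The 2 GSN probes followed each other closely. Their levels correlated with r = 0.997 over 21 arrays and their within-mare changes with r = 0.997 over 10 mares, points that share the arrays and the slides. Probe 1 exceeded probe 2 by 0.26 ± 0.06 log2 (SD, n = 11 arrays) at day 12 and by 0.33 ± 0.04 (SD, n = 10) at day 8. From highest to lowest the groups stood in the order day 12 pregnant, day 12 control, day 8 pregnant and day 8 control on both probes. Neighbouring means differed by less than the larger of their SDs, except that day 12 control exceeded day 8 pregnant by 0.70 log2 on probe 2 against an SD of 0.57.

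RND3, the member that loosens stress fibres, was higher in pregnant than in control endometrium of every mare at day 12. In day 12 control samples its level ranged from -1.17 to -0.58 with a median of -0.83, and in pregnant samples from -0.27 to 0.29 with a median of -0.12. The lowest pregnant sample lay 0.31 above the highest control sample, so the groups did not overlap. The changes were 0.90, 0.87, 0.65, 0.89, 0.59 and 0.69 log2 in mares 1 to 6, with an SD of 0.14. The mean change was 0.77, 0.87, 0.79 and 0.59 on the 4 slides. The fitted change was 0.77 ± 0.12 log2 (SE, n = 6 mares), or 1.70-fold, and lay between 0.73 and 0.80 under the 16 alternatives run. It was past the threshold under 7 of these 16, and in 1 of the 6 fits that left out a mare (that without mare 3). This change chose RND3, and it is the one member probe among the 102 probes past the threshold at day 12 (0.265% of 38461 tested, 0.211% higher and 0.0546% lower). From these counts nothing is read about RND3. In the same way, 0.322% of probes had day 12 pregnant and control groups without overlap, and 2.25% were higher and 3.71% lower in every day 12 mare, 5.96% in either direction.

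At day 8 the RND3 levels showed no common direction with pregnancy. The control samples of mares 1, 2, 4, 5 and 6 had levels of -0.01, -0.84, -0.09, -1.14 and -0.11. The pregnant samples of the same mares had levels of -0.08, -0.43, -0.79, -0.92 and -0.40. RND3 was thus higher in 2 mares and lower in 3, and the groups overlapped. The fitted change was -0.08 ± 0.14 log2 (SE, n = 5 mares, 95% interval -0.38 to 0.21, limma adjusted p = 0.964), and without mare 4 it was 0.069. The SD of the changes was 0.43 at day 8 against 0.14 at day 12. The day 12 change minus the day 8 change was 0.85 ± 0.18 log2 (SE), a description, since it contains the day 12 change.

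Between days RND3 did not pass the test in either kind of sample. Both comparisons use the day 12 arrays whose difference chose RND3, and their values differ by the difference of the pregnancy changes given above, so their opposite signs are not independent of that choice. Control samples differed by -0.40 ± 0.23 log2, day 12 minus day 8 (SE, 95% interval -0.90 to 0.10, limma adjusted p = 0.289), and by -0.23 without mare 1. Pregnant samples differed by 0.45 ± 0.17 log2 (SE, 95% interval 0.06 to 0.83, limma adjusted p = 0.0824), and by 0.60 with an adjusted p of 0.0361 when mare 1 was left out. The order of the group means was day 12 pregnant at -0.08 ± 0.21 (SD, n = 6), day 8 control at -0.44 ± 0.52 (n = 5), day 8 pregnant at -0.52 ± 0.34 (n = 5) and day 12 control at -0.84 ± 0.23 (n = 6). No neighbours in this order differed by more than the larger of their SDs.

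TAGLN, the smooth muscle actin-binding member, was also higher in pregnancy in all 6 mares of day 12, but by very unequal amounts. The control levels ranged from -2.85 to -1.08 with a median of -1.70, and the pregnant levels from -1.43 to -0.35 with a median of -0.90. The groups overlapped, since control mare 6 at -1.08 lay above 3 of the 6 pregnant samples. The changes were 2.17, 0.80, 0.23, 1.40, 0.08 and 0.71 log2 in mares 1 to 6. Mare 1 combined the lowest control level with the largest change, and mares 3 and 5 changed little. The fitted change was 0.90 ± 0.23 log2 (SE, n = 6 mares), or 1.86-fold, and 0.64 to 1.06 when 1 mare was left out. By slide the mean change was 1.20, 0.80, 1.05 and 0.08. TAGLN was chosen by this change, which is a description.

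**Figure D2:**
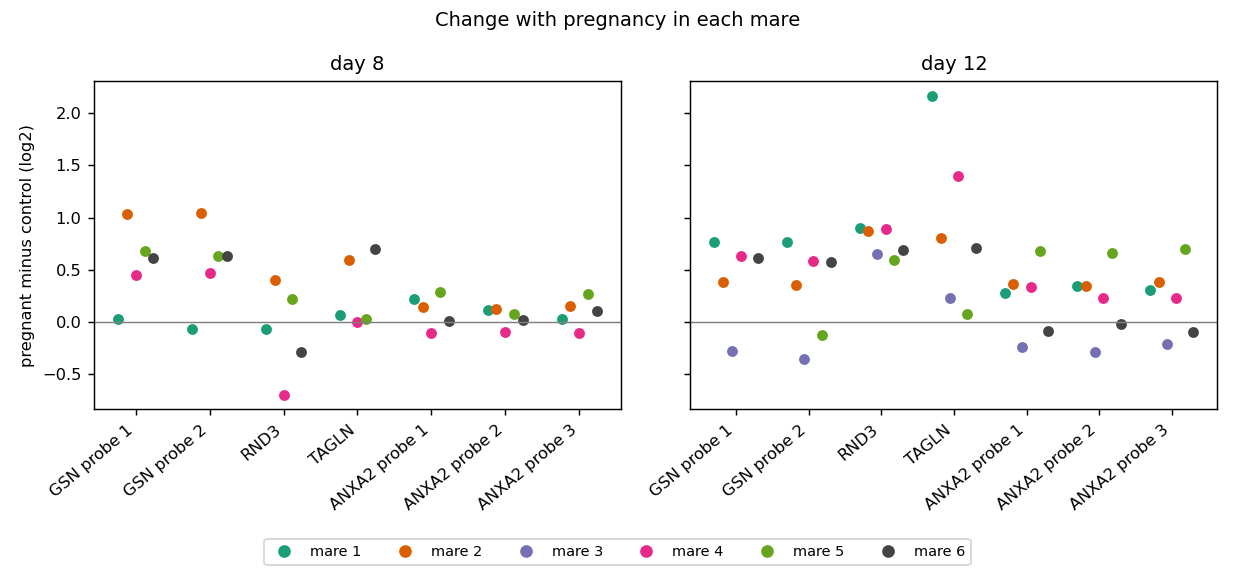
Change with pregnancy of each of the 7 probes within each mare (points, coloured by mare), pregnant minus control on the log2 scale (y axis), by probe (x axis) at day 8 (left) and day 12 (right). At day 12 the 6 RND3 points lie between 0.59 and 0.90 and the TAGLN points between 0.08 and 2.17. The 3 ANXA2 probes show nearly the same spread of mares side by side.

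At day 8 the TAGLN level of mare 1 stood apart. Control levels were -1.06, -2.39, -2.26, -2.03 and -2.32 in mares 1, 2, 4, 5 and 6, and pregnant levels were -0.99, -1.79, -2.26, -1.999 and -1.62. Mare 1 was the highest in both groups. The changes were 0.07, 0.60, 0.00, 0.03 and 0.70 log2, so that 2 mares carried most of the mean. The fitted change of 0.28 ± 0.25 log2 did not pass the test (SE, n = 5 mares, 95% interval -0.28 to 0.84, limma adjusted p = 0.910). Without mare 6 it was 0.17. The day 12 change minus the day 8 change was 0.62 ± 0.34 log2 (SE), a description, and 0.31 without mare 1.

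Between days TAGLN differed in the pregnant samples. It rose from a mean of -1.73 ± 0.48 (SD, n = 5) at day 8 to -0.89 ± 0.50 (SD, n = 6) at day 12, by 0.84 ± 0.28 log2 (SE, 1.79-fold, limma adjusted p = 0.0462). The same day 12 pregnant arrays gave the change that chose TAGLN, so this call is not independent of the choice. It was lost when mare 2, 4, 5 or 6 was left out, with changes of 0.87, 0.60, 0.88 and 0.76 log2 and limma adjusted p of 0.0846, 0.178, 0.0809 and 0.124. It passed under 5 of the 16 alternatives, with limma adjusted p from 0.0322 to 0.254. In control samples the difference between days was 0.22 ± 0.32 log2 (SE, 95% interval -0.48 to 0.92, limma adjusted p = 0.702), with means of -1.79 ± 0.59 (SD, n = 6) and -2.01 ± 0.55 (SD, n = 5). It was 0.67 without mare 1 (limma adjusted p = 0.0820) and 0.00062 without mare 6. In order, day 12 pregnant stood above day 8 pregnant by 0.84 against an SD of 0.50, and the other 3 groups did not differ by more than their SDs.

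The 5 TAGLN spots on an array gave the spread of repeat spots, which does not include the spread between biopsies. Their SD within an array ranged from 0.019 to 0.315 log2 over the 22 arrays. The highest, 0.315, was on the pregnant array of day 12 mare 6, and the day 12 arrays of mare 2 had 0.181 and 0.221. On the day 12 arrays of mare 3 it was 0.038 and 0.053, and on those of mare 5 it was 0.032 and 0.025.

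ANXA2, which links actin to membranes, did not pass the test with pregnancy at either day, and its 3 probes gave nearly equal values. At day 12 the fitted changes were 0.22 ± 0.11, 0.21 ± 0.11 and 0.22 ± 0.11 log2 on probes 1, 2 and 3 (SE, n = 6 mares, limma adjusted p = 0.455, 0.454 and 0.458). Probe 1 changed by 0.28, 0.36, -0.24, 0.34, 0.68 and -0.08 log2 in mares 1 to 6, so mare 5 was the highest and mares 3 and 6 were lower in pregnancy. Without mare 5 the fitted changes were 0.13, 0.12 and 0.12 log2. With the normexp correction the 3 probes turned to -0.25, -0.27 and -0.31 relative to the median of all probes. At day 8 the fitted changes were 0.11 ± 0.12, 0.05 ± 0.12 and 0.09 ± 0.12 log2 (SE, n = 5 mares, limma adjusted p = 0.936, 0.982 and 0.951). The upper 95% bound of the change on probe 1 was 0.47 log2 at day 12 and 0.38 at day 8. The day 12 change minus the day 8 change was 0.11 ± 0.17, 0.17 ± 0.16 and 0.13 ± 0.16 log2 (SE, limma adjusted p = 0.839, 0.736 and 0.811), with probes 1 and 3 at -0.027 and -0.11 under the normexp correction.

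Between days the ANXA2 probes disagreed. Probe 3 had levels of 2.42, 2.42, 2.50, 2.28 and 2.50 in the control samples of day 8 mares 1, 2, 4, 5 and 6, and levels of 2.45, 2.58, 2.39, 2.55 and 2.61 in the pregnant samples. At day 12 it ranged from 3.00 to 3.96 in control samples and from 3.23 to 3.87 in pregnant samples. All 12 day 12 arrays lay above all 10 day 8 arrays, with a gap of 0.39. The control arrays among these chose ANXA2. The share of all probes with such a gap over all arrays was not counted. Days did not overlap for 7.26% of all probes in control samples alone and for 13.6% in pregnant samples alone. Probes 1 and 2 overlapped between days in both kinds of sample. In the pregnant samples, which were not used to choose ANXA2, probe 3 rose by 1.02 ± 0.14 log2 from day 8 to day 12 (SE, 2.03-fold, limma adjusted p = 0.00126). These samples share mares and slides with the control samples that chose ANXA2, so this call is not independent of the choice. Probe 2 differed by 0.29 ± 0.18 log2 (95% interval -0.10 to 0.67, limma adjusted p = 0.247) and probe 1 by 0.03 ± 0.17 (95% interval -0.35 to 0.41, limma adjusted p = 0.911). The call of probe 3 held in all 6 fits that left out 1 mare number and in 14 of the 16 alternatives. The exceptions were the normexp correction (0.85 log2, limma adjusted p = 0.213) and the authors' deposited table (1.17 log2, limma adjusted p = 0.108).

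The control samples gave the same picture as a description, since they chose the gene. Probe 3 differed by 0.90 ± 0.18 log2 (SE, 1.86-fold) between days, probe 2 by 0.12 ± 0.20 and probe 1 by -0.08 ± 0.20. On probe 1 the group means were 4.79 ± 0.29 and 4.57 ± 0.34 in day 12 pregnant and control samples (SD, n = 6 each) and 4.76 ± 0.24 and 4.65 ± 0.29 at day 8 (SD, n = 5 each), all within their SDs of each other. On probe 3 they were 3.54 ± 0.26, 3.32 ± 0.35, 2.51 ± 0.09 and 2.42 ± 0.09 in the same order, and the step between day 12 control and day 8 pregnant, 0.81, exceeded the larger SD of 0.35. Probe 2 had the group order of probe 3, with day 8 control the lowest, and no neighbouring groups beyond their SDs. On probe 1 day 12 control was the lowest group.

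**Figure D3:**
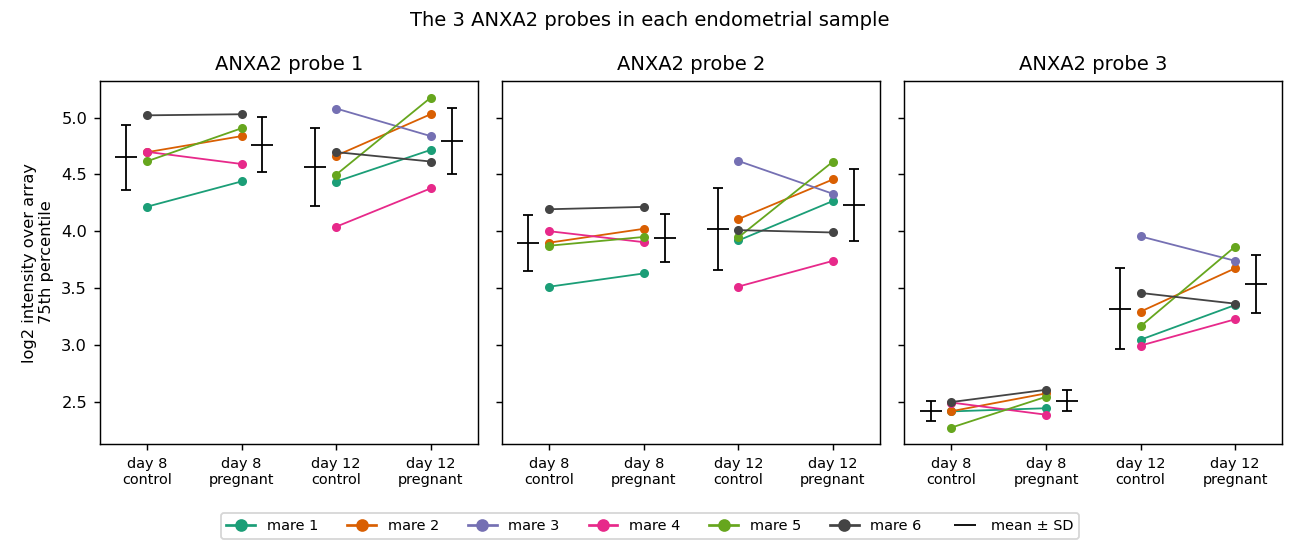
Levels of the 3 ANXA2 probes in each endometrial sample, as log2 intensity over the 75th percentile of the array (y axis, shared) by day and pregnancy (x axis). Points are samples, lines join the control and pregnant sample of 1 mare, and bars are the mean ± SD of a group. On probe 3 all day 12 samples lie above all day 8 samples, while on probes 1 and 2 the days overlap.

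Set against each other on the same array, the ANXA2 probes had offsets that did not overlap between the days. The control arrays among these chose ANXA2, and the share of other probe pairs with such offsets was not counted, so this is a description. Probe 1 exceeded probe 3 by 1.25 ± 0.12 log2 on the day 12 arrays (SD, n = 12, range 1.04 to 1.39) and by 2.24 ± 0.21 on the day 8 arrays (SD, n = 10, range 1.80 to 2.52). This offset was 1.25 in both groups of day 12, and 2.25 and 2.23 in pregnant and control samples of day 8. Probe 1 exceeded probe 2 by 0.55 ± 0.07 at day 12 and by 0.78 ± 0.08 at day 8. These ranges nearly touched, with a highest value of 0.685 at day 12 and a lowest of 0.687 at day 8. Across arrays the levels of probes 1 and 3 correlated with r = 0.321 (22 arrays), those of probes 1 and 2 with r = 0.892 and those of probes 2 and 3 with r = 0.651. The within-mare changes correlated with r = 0.956, 0.950 and 0.952 for these pairs, and all 11 mares had the same sign on all 3 probes. The points of these correlations share arrays, slides and the RNA of a mare.

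The spread of the ANXA2 probes between days was wide but not outside what other transcripts on the array showed. The highest and lowest change of the 3 probes lay 0.98 log2 apart in control samples, against a median of 0.32 over 777 transcripts with 3 probes, and 10.6% of those had a spread at least as large. In pregnant samples the distance was 0.99, and 11.1% of the transcripts reached it. For the pregnancy change at day 12 the ANXA2 probes lay within 0.01 log2, and 98.5% of the transcripts had a spread at least as large. The 2 GSN probes lay 0.20 apart between the days in control samples, near the median of 0.22 over 3210 transcripts with 2 probes, and 0.07 apart in pregnant samples. Which part of the ANXA2 transcript each probe reads was not analysed here, and the part of slide, scan or software in the offset was not tested.

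The counts of calls among the 7 probes were read against those of the whole array. With pregnancy at day 12, 1 of 7 was past the threshold (RND3), beside 0.265% of all probes. All 7 fitted changes were above 0, beside 45.9% of all probes, with a median of 0.30 log2 beside -0.02. RND3 and TAGLN were chosen by this comparison and the other 5 are repeat probes of GSN and ANXA2, so nothing is read from these counts. The normexp correction turned 5 of the 7 changes, those of GSN and ANXA2, below the median of all probes. With pregnancy at day 8, 0 of 7 passed in limma, as did 0% of 38457 probes in either direction. At an unadjusted p under 0.05 there were 2 of the 7, both of GSN, and 2243 of all probes (5.83%), and the median change of the 7 was 0.11 log2 beside -0.01. GSN was chosen by this comparison, so nothing is read from these values. Only 0.217% of all probes had day 8 pregnant and control groups without overlap, and none of the 7 did. For the difference of the pregnancy changes, 0 of 7 passed, beside 4 of all probes (0.0104%, with 0.0078% higher and 0.0026% lower), and the medians were 0.13 and 0.00. At an unadjusted p under 0.05 there was 1 of the 7, RND3, beside 4044 of 38461 probes. The difference contains the day 12 change that chose RND3, so nothing is read from that count.

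More probes passed between the days. In control samples 3 of 7 probes were past the threshold, all higher at day 12 (both GSN probes and ANXA2 probe 3), beside 7.09% of all probes (2.47% higher and 4.62% lower). As GSN and ANXA2 were chosen by this comparison, nothing is read from that count. The same 3 probes had control groups without overlap, beside 7.26% of all probes. In pregnant samples 4 of 7 passed, all as higher at day 12 (both GSN probes, TAGLN and ANXA2 probe 3). Beside this, 24.3% of all probes passed (11.1% higher and 13.1% lower), and the median change was 0.84 log2 beside -0.03. The day 12 pregnant arrays also gave the change that chose TAGLN, and 2 of the 4 are repeat probes of GSN. From this count nothing is read. Only ANXA2 probe 3 had pregnant groups without overlap between the days, beside 13.6% of all probes. The normexp correction moved the median of all probes to 0.39 in this comparison and left 388 of 9332 calls (132 higher and 256 lower, against 4280 and 5052), none of them a member. Relative to that median GSN was at 0.34 and 0.48, TAGLN at 0.44 and ANXA2 probe 3 at 0.46, while ANXA2 probes 1 and 2 were at -0.53 and -0.16. The control and pregnant comparisons share no array, but they share the mares, slides, scan days and software of each day. The calls of GSN and ANXA2 in pregnant samples are therefore not independent of the control values that chose these genes. Equal mare numbers may also be the same mares across days.

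**Figure D4:**
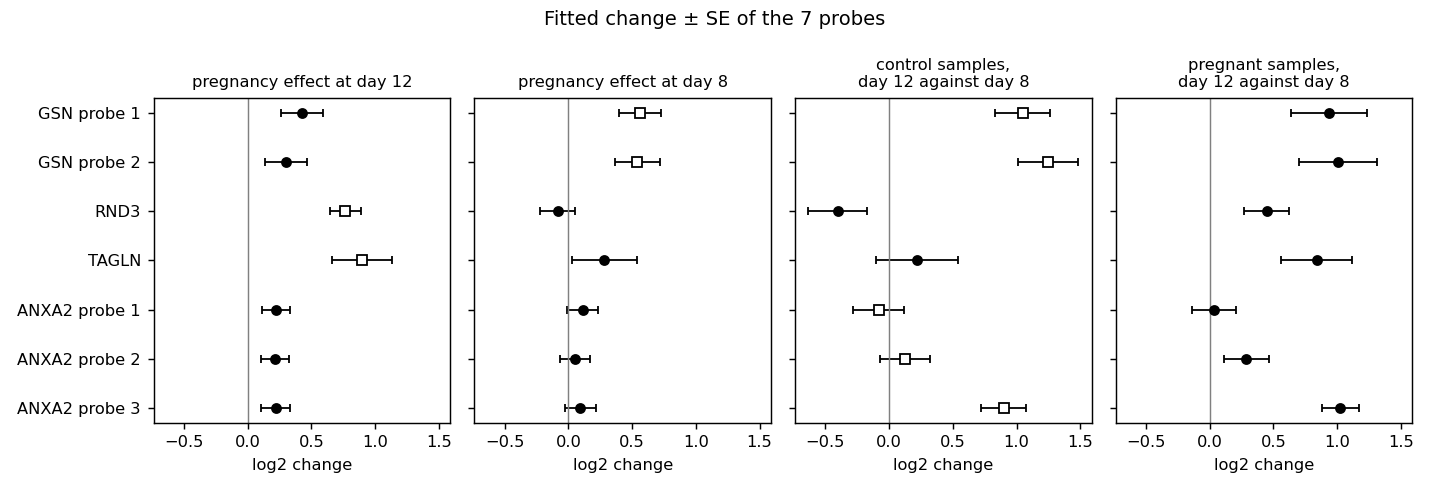
Fitted log2 change ± SE (x axis) of the 7 probes (rows) in 4 comparisons (panels). Open squares are values of the comparison that chose the gene and are described without a test, filled circles are values that were tested. RND3 and TAGLN stand at 0.77 and 0.90 with pregnancy at day 12, and ANXA2 probe 3 stands at 0.90 and 1.02 between the days while probe 1 stands at -0.08 and 0.03 and probe 2 at 0.12 and 0.29.

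The wider actin machinery was thinly covered. The list held 128 further gene symbols for severing and capping, small GTP-binding proteins and their effectors, actins, cross-linking, annexins and transcription. Some transcription genes stood in it under both an old and a new symbol, so it held fewer than 128 genes. Of these genes, 8 were named on the array and measured. None of the 8 passed in limma for pregnancy at day 12, pregnancy at day 8, their difference or the control days, with 2, 0, 2 and 0 genes at an unadjusted p under 0.05, beside 4797 of 38461, 2243 of 38457, 4044 of 38461 and 10143 of 38460 of all probes. In pregnant samples 1 of 8 passed as lower at day 12 than at day 8 and none passed as higher, beside 13.1% of all probes lower and 11.1% higher. This count is near the share over all probes, so nothing is read from it about actin genes. The gene that passed was CAP1, which recycles actin monomers, at -0.43 ± 0.13 log2 (SE, limma adjusted p = 0.0382). The other 7 did not pass. TPM3, a tropomyosin that coats filaments, was at -0.42 ± 0.14, and TMSB10, which holds actin monomers in reserve, at -0.45 ± 0.19 (SE, limma adjusted p = 0.0501 and 0.103). S100A6 was at 0.60 ± 0.22, TGFB1 at 0.35 ± 0.19 and ANXA1 at 0.15 ± 0.18 (SE, limma adjusted p = 0.0699, 0.203 and 0.548). ACTB and CAPZA2, a capping protein subunit, were at -0.32 ± 0.16 and -0.08 ± 0.17 (SE, limma adjusted p = 0.168 and 0.748).

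Close relatives and partners of the members did not pass with pregnancy. S100A6, a small calcium-binding protein that can bind annexin A2, differed by 0.58 ± 0.19 log2 at day 12 (SE, limma adjusted p = 0.225). ANXA1, another annexin, differed by 0.08 ± 0.09, and ACTB, cytoplasmic actin itself, by 0.03 ± 0.11 (limma adjusted p = 0.767 and 0.928). TGFB1, a growth factor that can induce TAGLN, differed by 0.31 ± 0.13 (limma adjusted p = 0.343). The median change of the 8 genes was -0.01 log2 at day 12 and 0.09 at day 8, and -0.11 and -0.20 between the days in control and pregnant samples.

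Markers of the cells that a biopsy can hold were read beside these values. Of 10 smooth muscle markers 1 was measured, and that one was TAGLN, so the share of muscle or vessel wall in a biopsy was not tested. The 1 measured marker of epithelium of 10, ESRP1, had a mean level between 2.84 and 2.99 in all 4 groups, and the 2 stromal markers of 11, DCN and LUM, were well above background on all arrays. The endothelial marker PECAM1, 1 of 6 measured, ranged from 0.51 to 1.51 in day 12 pregnant, -0.13 to 1.07 in day 12 control, -0.05 to 0.21 in day 8 pregnant and -0.33 to 0.28 in day 8 control samples. It rose between the days in pregnant samples, by 0.92 ± 0.19 log2 (SE, limma adjusted p = 0.00589), beside the rise of TAGLN, GSN and ANXA2 probe 3. Its change with pregnancy at day 12 was 0.44 ± 0.16 (SE, limma adjusted p = 0.305). Its part in the values of the members was not tested.

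Some of the other measured markers also moved between the days in pregnant samples, where 11.1% of all probes passed as higher and 13.1% as lower. Of the 12 measured of 61 listed, TAGLN apart, 2 passed as higher (PECAM1 and the monocyte marker CD14, by 1.01 ± 0.15 log2, SE, limma adjusted p = 0.00183) and 2 as lower. The platelet marker ITGA2B fell by 0.84 ± 0.14 and the stromal marker LUM fell by 0.63 ± 0.20 log2 (SE, limma adjusted p = 0.00283 and 0.0418). None of the 12 passed in the other 4 comparisons, with 3, 1, 2 and 5 at an unadjusted p under 0.05 for pregnancy at day 12, pregnancy at day 8, their difference and the control days, beside the counts over all probes given for the actin genes. CD14 was 1 of 4 leucocyte markers measured of 12, and the other 3 did not pass and lay on the other side of 0, with CD68 at -0.23 ± 0.18, ITGAX at -0.61 ± 0.29 and LAPTM5 at -0.17 ± 0.14 log2 (SE, limma adjusted p = 0.355, 0.142 and 0.422). The summed level of the 4 ranged from 3.24 to 3.62 in day 12 pregnant and from 3.19 to 3.61 in day 8 pregnant samples, and from 2.80 to 3.58 and 2.99 to 3.60 in the control samples of day 12 and day 8. The 3 measured of 7 conceptus markers (PAG, CGA and IFND1), added in the same way, had log2 sums between -3.02 and -1.88. The part of these cell types in the values of GSN, RND3, TAGLN and ANXA2 was not tested.

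The named genes whose levels ran most like those of each member were listed by Pearson's r over the arrays, together with r of their within-mare changes. For GSN, over 21 arrays, these were GBE1 (0.81), TIMP3 (0.81), COPS7A (0.80), GM2A (0.79) and CALU (0.77). Their changes correlated with those of GSN with r from 0.07 (GM2A) to 0.66 (TIMP3) over 10 mares. For RND3, over 22 arrays, these were NOS2 (0.65), CDH13 (0.62), IL1RN (0.61), CLU (0.58) and EDNRA (0.58), with r of changes from 0.54 to 0.75 over 11 mares. CDH13, a cadherin, was the closest of these 5 to RND3 in its changes.

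For TAGLN the list held CDH13 (0.77), PECAM1 (0.72), ABCC1 (0.70), EDNRA (0.63) and RARB (0.63), with r of changes from 0.51 to 0.81. CDH13 and EDNRA, an endothelin receptor, stood in the lists of both RND3 and TAGLN. For ANXA2 probe 1 the list included HPGD (0.70), CD40 (0.63), KIR3DL (0.62) and BBOX1 (0.62), and the changes of these correlated from -0.34 (BBOX1) to 0.66 (CD40). The median r of levels over all named genes was -0.12 for GSN, 0.04 for RND3, -0.09 for TAGLN and 0.05 for ANXA2. The arrays share slides, mares and days, so these values are descriptions.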

How the data were processed

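Gene expression was measured on 22 Agilent 1-colour horse arrays. The deposited scanner files hold spot intensities, made by the authors with Agilent Feature Extraction (10.5.1.1 for day 12 and 10.7.3.1 for day 8 per the file headers, 10.5.1.1 per the submitters' processing notes). The authors' deposited value table was read as log2, with a normalisation that no header or label states, and entered as an alternative. From the processed intensity, log2 minus the 75th percentile of each array was taken, non-uniform outlier spots were left out and spots of a probe averaged. Probes well above background on at least 5 of 22 arrays were kept (38461 of 43603). Probes were named through RefSeq accessions of a horse gene table (assembly TB-T2T), which named 1394 probes of 675 genes.

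limma 3.58.1 in R 4.3.3 was fitted to all 22 arrays with the mare within day as a fixed block, and to the 11 control or 11 pregnant arrays between days, two-sided, with 95% intervals. The pairing comes from the labels. As a check, deviations of same-mare arrays correlated at 0.288 to 0.724 at day 12 and 0.322 to 0.816 at day 8, and all 11 matched their own mare best. Both arrays of a mare shared a slide, and slides 2, 4 and 6 held 1 mare each. For those mares the check cannot tell the mare from the slide. The fit was also run on simulated data with known changes, independent noise and a spread between mares, and its outcome is not reported here. The simulated data held no effect of slide, scan day or software, so that run says nothing about these factors. The number of arrays limits the precision. The normexp alternative was planned on the mean spot signal and was run on the median spot signal, the one the scanner files used here hold.

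The members, gene lists and tests were chosen with earlier results of these data known. All member probes are named, each gene standing by its brightest probe, and likeness names the 5 named genes with the highest r of levels, of which 1 is not reported here. In the actin and marker lists, genes are named where a count needs them or as relatives of a member.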

Additional observations from a re-analysis of the deposited data

Results flagged for a closer look

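The TAGLN level of the day 8 control sample of mare 1, -1.06, stood apart from the other 4 samples of its group, which lay between -2.39 and -2.03. Its gap to the nearest sample was 0.729 of the range of the group. Dixon's limit was passed in this 1 of 42 outlier tests, and chance passes it in about 1 in 20 tests. The pregnant sample of the same mare, at -0.99, was also the highest of its group.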

How the results depend on the processing

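The pregnancy changes of the 7 probes at day 12 kept their sign before centring under every alternative run. Probes past the threshold with pregnancy at day 12 numbered 102. They were 13 with the normexp correction (13 higher, 0 lower, against 81 and 21), 218 with a filter on all arrays, 287 with a trended robust prior, 303 in the authors' table, 41 with no replicate block and 9 with the day 12 arrays alone. Leaving out 1 mare gave 22 to 977, the highest without mare 3. RND3, the 1 member past the threshold, was then not past it under normexp, with no replicate block, with the slide as block or with the day alone (0 of 7 each), and 0 to 1 passed with 1 mare left out, 1 only without mare 3. The 4 probes of the difference of the pregnancy changes became 0 with quantile normalisation, a filter on all arrays, the authors' table or no replicate block, 2 without a filter or with the slide as block, and 11 with a trended robust prior, and 0 to 33 with 1 mare left out. The 2727 probes of the control days became 1620 with normexp, 4504 with quantile normalisation, 282 in the authors' table (11 higher, 271 lower, against 950 and 1777), 772 and 211 with slide and scan day as random blocks, and 5239 with the mare as random replicate block. Leaving out 1 mare number gave 347 to 2046. The 3 member probes became 0 in the authors' table, 1 with slide and 0 with scan day as block, and 0 to 3 with 1 left out. The 9332 probes of the pregnant days became 388 with normexp, 836 in the authors' table (441 higher, 395 lower) and 3433 with scan day as block, and 5478 to 8832 with 1 mare number left out. The 4 member probes became 0 with normexp or the authors' table, 1 with slide or scan day as block, and 1 to 4 with 1 left out. The random replicate block moved TAGLN in the pregnant samples to an adjusted p of 0.0858 and changed no other tested call of a member.

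Signs turned in 6 tested values, none past the threshold: RND3 at day 8 without mare 4 (0.069, with -0.21 to 0.069 over the mares left out), ANXA2 probes 1 and 3 in the difference with normexp (-0.027 and -0.11), and ANXA2 probe 1 between pregnant days with normexp (-0.14), without mare 1 (-0.034) and without mare 5 (-0.0094), with -0.034 to 0.13 over the mare numbers left out. The cause of these moves was not tested. Of the other tested changes under an alternative, 319 kept sign and side of the threshold, 29 lost a call and 1 gained one, all of these between the pregnant days. The mean of the 3 ANXA2 probes differed by 0.31 log2 between the control days, against -0.08 for probe 1. Keeping non-uniform spots was added after seeing the data. The alternatives were run for the 7 probes and the counts over all probes, not for the listed actin and marker genes. All 7 probes were well above background on every array.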
